A study of Homo sapiens with 6 samples.

Results

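The laminin trimer LM332 and the hemidesmosome were read out through 9 genes: LAMB3 and LAMA3 (laminin chains), ITGA6, ITGB4 and ITGA3 (integrin subunits), COL17A1, DST and PLEC (hemidesmosome components) and CD151 (a tetraspanin). The genes were taken by symbol from a count table of 28008 symbols, and all 9 were among the 17026 that passed the filter on low counts. The set was chosen by the LAMB3 counts, which were higher after doxycycline (DOX). The DOX differences and calls of the 9 genes are therefore given as descriptions, without printed p-values. The untreated LAMB3 counts entered that choice through the comparison with the treated ones. The order of the 9 genes by their untreated level was not part of it.

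LM332 is a secreted heterotrimer that includes the chains encoded by LAMA3 and LAMB3 and lies in the basement membrane under stratified and glandular epithelia. On the cell side it is bound by integrin α6β4, which is anchored to keratin filaments through plectin (PLEC) and the epithelial form of dystonin (DST), together with collagen XVII (COL17A1) and CD151. These proteins form the hemidesmosome, whereas integrin α3β1 binds the same laminin at focal contacts. In the normal prostate, hemidesmosomes are a feature of basal cells, and loss of LM332 and of the β4 subunit is known in prostate carcinoma.

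The RNA came from NCI-H660, a line of neuroendocrine prostate cancer (NEPC), transduced with the pLKO-tet-puro vector so that DOX switched on a hairpin RNA (shRNA) directed at MUC1. The DOX-negative group (n = 3) received 0.1% DMSO as vehicle and the DOX-positive group (n = 3) received 500 ng/mL DOX, for 7 days per the study's description. Both groups carried the same hairpin and had been selected in puromycin, and the sample records call all 6 libraries wild-type in their treatment field, so the groups were read from the sample titles. No DOX-treated line without the hairpin was in the comparison, so an effect of DOX itself, of this hairpin and of lower MUC1 cannot be told apart. The cells were cultured in triplicate, and each SD given below is the spread between cultures of 1 line. Each SE comes from a fit that pools variance estimates across genes, and it too covers only cultures of this line.

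The libraries held 47620696 to 74061121 counts. MUC1, the target of the hairpin, was at 88.2, 90.2 and 79.6 CPM without DOX (counts scaled to the TMM-adjusted library size) and 36.7, 37.2 and 29.9 CPM with it, a log2 difference of -1.32 (SE 0.096). The neuroendocrine label was checked against 8 markers, all of which were detected, summing to between 909 and 1020.5 CPM without DOX and between 789 and 897 CPM with it. Over all genes tested, 496 were higher and 333 were lower with DOX at an adjusted p under 0.05 by edgeR's quasi-likelihood test. These 829 calls were 58 without DOX-negative replicate 3 and 127 without DOX-negative replicate 2, so the share of genes called, used below as background, moves with single libraries.

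RefSeq promoter entries (GRCh38.p14) were present for 5 of the 9 genes, in 10 windows, and are printed here for the 3 genes with the largest DOX differences among those 5 and for the start next to the epithelial form of DST. The second LAMB3 window (chr1:209652330-209652579) held none of the letters searched and is not printed, since it shares most of its bases with the first. Each window is the 250 bases before a start site, written 5′ to 3′ on the gene's strand. Capitals mark the letters TGANTCA, the core recognized by AP-1 factors, which reads the same on both strands. The first LAMB3 window (chr1:209652426-209652675, minus strand) ends at the first base before the gene and had 209 bases outside annotated transcripts. The third (chr1:209651375-209651624, minus strand) lies inside the gene, with 230 intronic and 20 exonic bases in the GENCODE annotation. The LAMA3 window (chr18:23872770-23873019, plus strand) also lies inside its gene, before an internal start, with 180 exonic and 70 intronic bases. The COL17A1 window (chr10:104085881-104086130, minus strand) ends at the base before the gene. The third DST window (chr6:56642890-56643139, minus strand) holds the annotated 5′ end, at base 56642896, of the transcript of the short epithelial form.
LAMB3 window 1: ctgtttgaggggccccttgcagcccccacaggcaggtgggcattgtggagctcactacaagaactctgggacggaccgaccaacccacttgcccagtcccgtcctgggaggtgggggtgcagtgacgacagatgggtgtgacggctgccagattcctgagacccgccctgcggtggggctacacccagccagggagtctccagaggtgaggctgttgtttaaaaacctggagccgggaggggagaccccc
LAMB3 window 3: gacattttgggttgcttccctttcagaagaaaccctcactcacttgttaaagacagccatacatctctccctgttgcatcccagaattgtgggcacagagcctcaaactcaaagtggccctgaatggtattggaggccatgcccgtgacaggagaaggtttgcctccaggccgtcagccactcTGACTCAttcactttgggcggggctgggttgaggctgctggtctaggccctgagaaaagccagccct
LAMA3: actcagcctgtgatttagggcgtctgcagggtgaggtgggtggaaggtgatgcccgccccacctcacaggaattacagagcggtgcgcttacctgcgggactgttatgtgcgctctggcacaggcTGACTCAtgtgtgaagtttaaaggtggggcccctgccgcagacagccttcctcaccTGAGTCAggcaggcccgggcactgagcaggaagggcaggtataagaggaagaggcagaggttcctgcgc
COL17A1: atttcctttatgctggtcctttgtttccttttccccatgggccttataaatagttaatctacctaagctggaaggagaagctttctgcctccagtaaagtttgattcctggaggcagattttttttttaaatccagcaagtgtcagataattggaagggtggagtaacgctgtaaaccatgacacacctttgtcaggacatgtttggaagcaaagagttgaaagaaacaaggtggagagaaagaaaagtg
DST window 3: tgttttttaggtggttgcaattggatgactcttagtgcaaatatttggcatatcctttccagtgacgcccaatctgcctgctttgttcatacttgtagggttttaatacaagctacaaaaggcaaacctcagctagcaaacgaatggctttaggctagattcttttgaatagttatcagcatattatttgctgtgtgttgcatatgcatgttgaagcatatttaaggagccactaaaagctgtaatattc

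The AP-1 letters stood in 1 of the 3 LAMB3 windows, as TGACTCA 67 bases before the start, and in the LAMA3 window, as TGACTCA 125 bases and TGAGTCA 69 bases before the start. Of all 35116 RefSeq windows of this length, 6.57% held at least 1 such match and 0.402% held 2 or more. Among genes with an entry, 8.06% of 27305 had a match in any of their windows. The TEAD letters CATTCC (reverse complement GGAATG, both strands searched), found in 11.9% of all windows, occurred in 1 window of the 5 genes, the first of DST. The E-box CACGTG, found in 6.34% of all windows, occurred in the first ITGA6 window 101 bases before its start and in the first DST window. These matches describe letters in a window and do not show that a factor binds there.

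Of the 9 genes, LAMB3, LAMA3 and ITGB4 were higher in the DOX-positive cells by edgeR's across-gene call, by DESeq2 and by limma-voom. At an unadjusted p under 0.05 in the edgeR fit, 5 were higher, with COL17A1 and ITGA3 added. Over all tested genes, 3597 of 17026 met that threshold in either direction. None was lower by any of these criteria. All of them were applied to the contrast that chose the set, so their agreement is a description and adds no support. LAMB3 was 2.81-fold higher, LAMA3 1.74-fold and ITGB4 1.50-fold. COL17A1 was at a ratio of 2.07 on few counts and was not called. The levels of ITGA6, ITGA3, DST, PLEC and CD151 overlapped between the groups. The 3 calls of 9 stand beside 4.87% of all tested genes called in either direction, 2.91% called higher and 1.96% called lower, and, because the choice of the set rested on this contrast, nothing is read from that difference. Without DOX-negative replicate 3, LAMB3 alone was called, and without DOX-negative replicate 2, LAMB3 and LAMA3 were. In bulk RNA, a change in the share of cells that express a gene and a change in RNA per cell cannot be told apart.

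In 4 of the 9 genes every DOX-positive library lay above every DOX-negative library, against 14.8% of all tested genes, and no gene of the 9 lay entirely below, against 13.3% (28.1% of tested genes did not overlap in either direction). The median log2 difference of the 9 genes was 0.24, against 0.00034 over all genes tested, with 6 genes above 0 and 3 below. The set was chosen by the rise of LAMB3 in this contrast, so nothing is read from these comparisons.

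**Figure D1:**
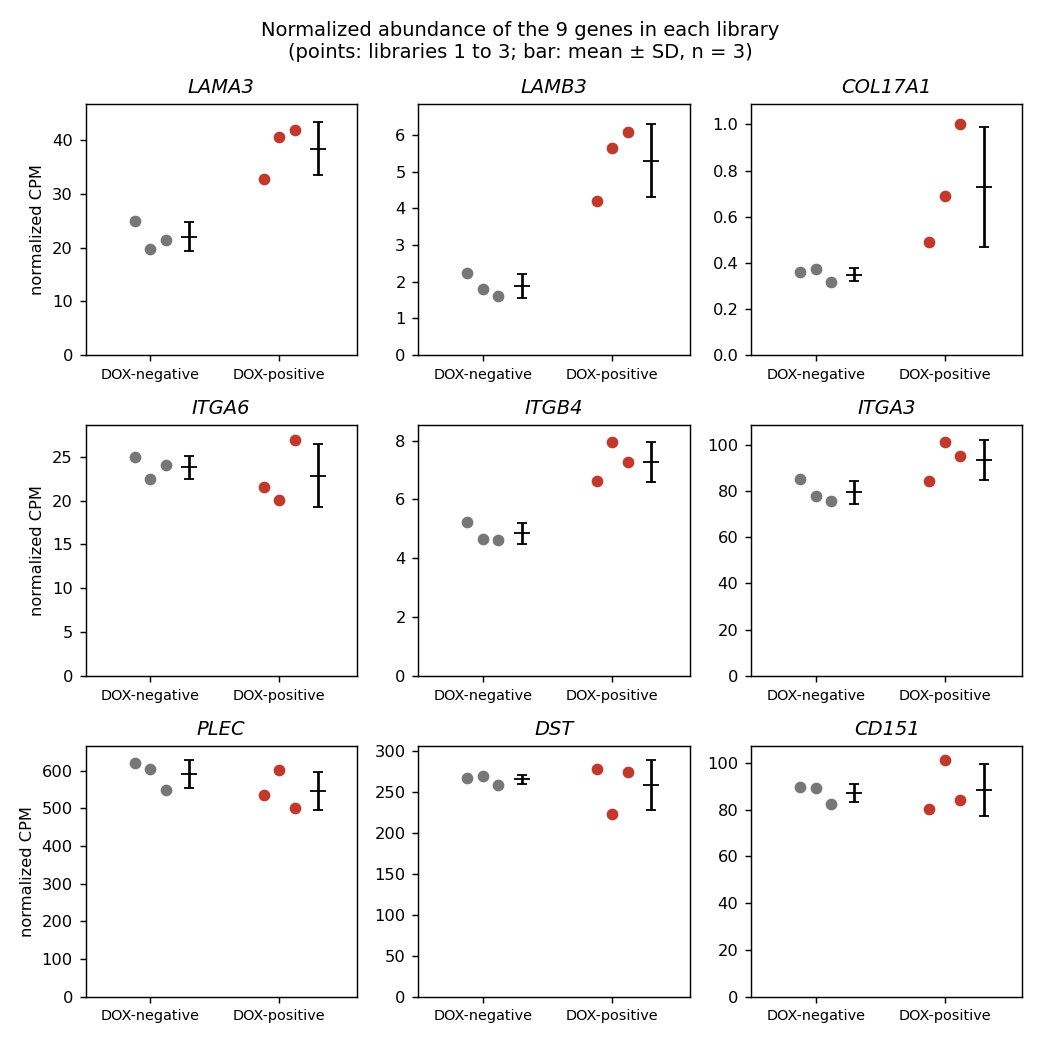
Normalized CPM (linear axis from 0, scaled per gene) of the 9 genes in the 3 DOX-negative (gray) and 3 DOX-positive (red) libraries, with bars for mean ± SD. The red points stand clear above the gray points for LAMB3, LAMA3, ITGB4 and COL17A1 and overlap them for the other 5 genes.

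LAMB3 (chr1:209614870-209652425, GRCh38.p14) encodes the β3 chain of LM332. Its level without DOX was 2.24, 1.79 and 1.60 CPM, and with DOX it was 4.19, 5.64 and 6.09 CPM. The lowest treated culture was above the highest untreated culture, and the DOX-positive library 1 was the lowest of the 3. The means were 1.88 ± 0.33 and 5.31 ± 0.99 CPM (SD, n = 3 each), a log2 difference of 1.49 (SE 0.17), the largest of the 9 genes. These levels rested on 143, 111 and 76 counts without DOX and on 317, 310 and 449 counts with DOX.

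LAMA3 (chr18:23689453-23955066), the α3 chain that carries the integrin-binding domains of the trimer, was at 25.0, 19.7 and 21.4 CPM without DOX and at 32.8, 40.6 and 41.9 CPM with DOX. The groups did not overlap, and DOX-positive library 1 was again the lowest treated library. The log2 difference was 0.80 (SE 0.12). A gene-level count does not separate the short and long forms of this chain, of which the short form is the one in LM332.

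ITGB4 (chr17:75721459-75757818), the subunit whose long cytoplasmic tail links LM332 to plectin, was at 5.24, 4.67 and 4.62 CPM without DOX and at 6.61, 7.96 and 7.26 CPM with DOX. Every treated library was above every untreated one, and the log2 difference was 0.58 (SE 0.12). ITGB4 overlaps GALK1, which had 329 to 492 counts and a log2 difference of 0.088 (SE 0.15). Whether strand was used in counting is not given in the sources used here, so reads in the shared stretch are uncertain.

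ITGA6 (chr2:172427336-172506459), the only α partner of the β4 subunit, was at 24.9, 22.4 and 24.1 CPM without DOX and at 21.5, 20.1 and 26.9 CPM with DOX. The treated libraries lay on both sides of the untreated ones, and the log2 difference of -0.058 was smaller than its SE of 0.11. ITGA3 (chr17:50056110-50090481), which pairs with the β1 subunit to form the other LM332 receptor, was at 85.1, 77.6 and 75.5 CPM without DOX and at 84.3, 101.3 and 94.9 CPM with DOX. DOX-positive library 1 fell among the untreated libraries, and the log2 difference was 0.24 (SE 0.086).

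COL17A1 (chr10:104031286-104085880), the transmembrane collagen of the hemidesmosome, had 23, 23 and 15 counts without DOX and 37, 38 and 74 counts with DOX, that is 0.36, 0.37 and 0.32 CPM against 0.49, 0.69 and 1.00 CPM. All treated libraries were higher, with DOX-positive library 3 at the highest level. The log2 difference was 1.05 with an SE of 0.30, the widest error of the 9 genes, and it was 0.73 without DOX-positive replicate 3. Without DOX-positive replicate 1, where the difference was 1.28, COL17A1 was called too.

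PLEC (chr8:143915153-143976745), the plakin that ties the β4 tail to keratin, was at 620.2, 604.3 and 549.8 CPM without DOX and at 534.6, 601.1 and 502.2 CPM with DOX, a log2 difference of -0.12 (SE 0.085). DST (chr6:56457996-56954830), the gene of the plakin BPAG1, was at 266.7, 269.6 and 258.8 CPM without DOX and at 277.4, 223.4 and 274.1 CPM with DOX, a log2 difference of -0.037 (SE 0.087). Both plakins overlapped between the groups, and the gene-level count of DST does not separate its epithelial form from its neuronal and muscle forms. CD151 (chr11:832952-838831), the tetraspanin that associates with the α3 and α6 integrins, was at 89.7, 89.1 and 82.5 CPM without DOX and at 80.4, 101.1 and 83.9 CPM with DOX. Its groups overlapped as well, with a log2 difference of 0.021 (SE 0.092).

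The levels of the 9 genes in untreated cells were compared per transcript length, as deposited TPM (transcript abundance scaled by length and library size). CD151 was the highest, at 33.6 ± 5.76 TPM, and 915 genes had a higher mean. PLEC followed at 19.0 ± 3.48 TPM, ITGA3 at 8.55 ± 1.42 TPM and DST at 5.64 ± 0.85 TPM. The transcripts of the receptor chain ITGA6 (2.10 ± 0.25 TPM) and of LAMA3 (1.04 ± 0.19 TPM) were in the middle of the order. ITGB4 (0.42 ± 0.070 TPM), LAMB3 (0.23 ± 0.059 TPM) and COL17A1 (0.034 ± 0.0071 TPM) were the lowest (SD, n = 3). No neighbors in this order overlapped over the 3 untreated libraries. LAMB3 ranked below 14361 of the 20455 genes with a mean above 0, and COL17A1 below 16946. The noncoding RNA RN7SK took 21.2% to 27.1% of all TPM in a library, and the absolute TPM of every other gene is scaled to what is left.

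With DOX, CD151, PLEC, ITGA3 and DST kept their places, at 34.3 ± 3.61, 17.7 ± 3.06, 10.2 ± 1.14 and 5.70 ± 1.71 TPM. ITGA6 (2.07 ± 0.53 TPM) and LAMA3 (1.83 ± 0.22 TPM) overlapped each other in the treated libraries. LAMB3 (0.63, 0.56 and 0.74 TPM) and ITGB4 (0.71, 0.57 and 0.63 TPM) also overlapped, so their order in treated cells was not resolved. COL17A1 was still the lowest, at 0.070 ± 0.023 TPM.

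**Figure D2:**
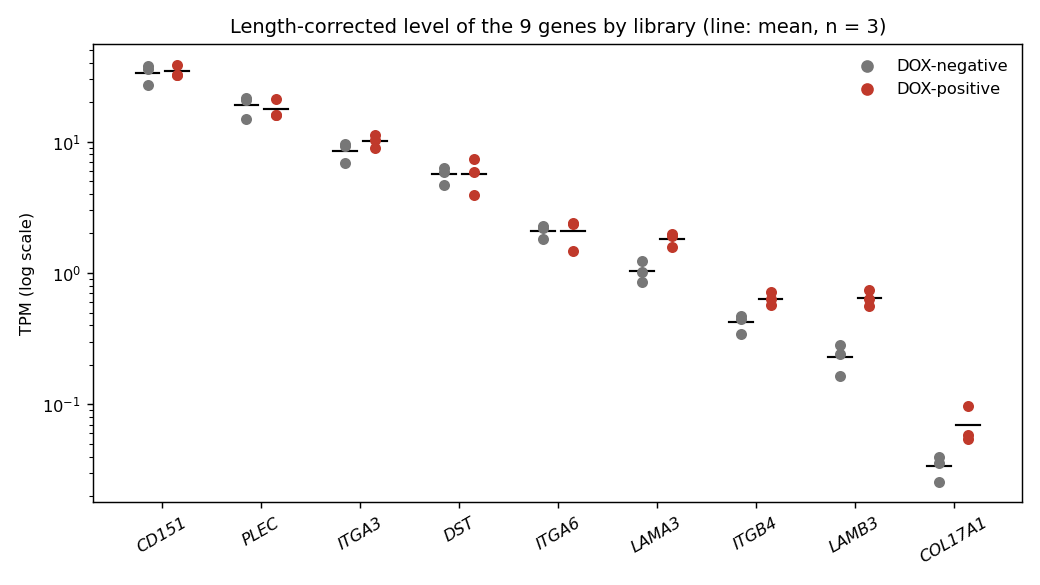
TPM (log axis) of the 9 genes in each DOX-negative (gray) and DOX-positive (red) library, ordered by the DOX-negative mean, with a line at each group's mean (n = 3). The genes span CD151 at 33.6 TPM to COL17A1 at 0.034 TPM without DOX, and LAMB3 reaches the level of ITGB4 with DOX.

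The LAMA3 and LAMB3 chains were not at equal transcript levels. In the DOX-negative libraries LAMA3 was 4.36, 4.28 and 5.22 times LAMB3 in TPM, and in the DOX-positive libraries it was 3.05, 2.81 and 2.68 times LAMB3. LAMB3 was thus the less abundant of the pair in all 6 libraries, and the ratio was lower in each treated library than in any untreated one. The set was chosen by the rise of LAMB3, so this lower ratio restates that rise relative to LAMA3 and is no separate result. A ratio within a library does not depend on its depth or on RN7SK, but it does depend on the transcript lengths used for TPM.

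LAMB3 transcripts were below those of the β1 and β2 chains in all 6 libraries, whereas LAMB4, the β4 chain, was lower still, at 0.0067 TPM without DOX and 0.0070 TPM with DOX. LAMB2, the β2 chain, was 30.6 ± 3.35 times LAMB3 without DOX and 12.6 ± 1.21 times with DOX. LAMB1, the β1 chain, was 3.78 ± 0.58 times LAMB3 without DOX and 1.37 ± 0.20 times with DOX. Both ratios are divided by LAMB3, whose rise chose the set, so their lower values with DOX are no separate result. LAMB1 itself was at 9.15, 9.59 and 8.76 CPM without DOX and 8.77, 9.78 and 9.67 CPM with DOX, with overlapping groups.

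Among the receptor chains, ITGA6 exceeded its partner ITGB4 by 4.85, 4.89 and 5.31 times in TPM without DOX and by 3.32, 2.56 and 3.78 times with DOX. ITGB1, the β subunit with which α6 and α3 also pair, exceeded ITGB4 by 124 ± 10.5 times without DOX and 82.3 ± 15.6 times with DOX. ITGB4 was the scarcest of the integrin transcripts of both LM332 receptors in every library. Protein levels and surface pairing were not measured.

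Beyond the 9 genes, 96 genes of 8 related lists were read from the same fit. Of these, 85 passed the filter, 7 were higher and 4 were lower with DOX, that is 12.9% called against 4.87% of all genes, and their median log2 difference was 0.070. The lists were written with earlier results of these data known, so their share of calls is a description. At an unadjusted p under 0.05 the edgeR fit held 3597 of all 17026 genes, in either direction. DESeq2 called 1355 of 22557 genes and limma-voom 676 of 17026. These are the background of the list counts given below by the same criteria. None of the 11 calls remained without DOX-negative replicate 3, and 4 were called without DOX-negative replicate 2.

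Among the other laminin chains reported here, LAMA1 rose and LAMA4 fell. LAMA1, the α1 chain of embryonic basement membranes, was at 15.8, 13.9 and 15.1 CPM without DOX and 21.3, 22.5 and 23.8 CPM with DOX, a log2 difference of 0.59 (SE 0.089, adjusted p = 0.0059). LAMA4, an α chain of vessels and muscle, was at 22.5, 26.2 and 27.4 CPM without DOX and 17.0, 15.4 and 11.6 CPM with DOX, a log2 difference of -0.79 (SE 0.13, adjusted p = 0.0096). The groups did not overlap for either gene. Each of these calls was lost only without DOX-negative replicate 3 among the fits that left out a library. LAMB1 and LAMB2 were not called, and LAMB4 did not pass the filter. At an unadjusted p under 0.05 in the edgeR fit, LAMB2, LAMC1 and LAMC3 were also higher among the chains reported here. LAMA4 alone was lower at that threshold. Neither DESeq2 nor limma-voom called LAMB2, LAMC1 or LAMC3.

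Of the 11 other integrin subunits tested, ITGA2, ITGB6 and ITGB8 rose and 0 fell in the edgeR fit, with a median of 0.53. At an unadjusted p under 0.05, 7 were higher and 1, ITGA9, was lower, against 3597 of all 17026 genes in either direction. DESeq2 called 5 higher, adding ITGA1 and ITGB5, and ITGA9 lower, and limma-voom called ITGA2 and ITGB6. ITGA9, named after its values were seen, was at 18.2, 18.4 and 18.7 CPM without DOX and 14.04, 15.58 and 15.45 CPM with DOX, a log2 difference of -0.30 (SE 0.085). ITGA2, the α2 subunit of a collagen and laminin receptor, was at 16.3, 13.8 and 14.1 CPM without DOX and 26.4, 28.2 and 42.8 CPM with DOX, a log2 difference of 1.14 (SE 0.17, adjusted p = 0.0065). ITGB6 and ITGB8, which pair with the αv subunit in receptors that activate latent TGF-β, had log2 differences of 0.56 (SE 0.11, adjusted p = 0.015) and 0.53 (SE 0.13, adjusted p = 0.035). Of the 6 fits that left out a library, the call was lost in 1 for ITGA2, 2 for ITGB6 and 4 for ITGB8. ITGB1 was at 377 to 407 CPM without DOX and 338 to 412 CPM with DOX and was not called. ITGA4, ITGA8 and ITGB7 did not pass the filter.

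Of 19 other basement membrane genes tested, SMOC1 and COL4A4 rose and COL18A1 and FRAS1 fell in the edgeR fit. At an unadjusted p under 0.05 in that fit, 5 were higher and 5 were lower, against 3597 of all 17026 genes in either direction. DESeq2 also called SMOC2 lower (edgeR log2 difference -0.34, SE 0.089), and limma-voom did not call COL4A4. SMOC1, a secreted calcium-binding protein, was at 82.0, 64.5 and 59.5 CPM without DOX and 100.5, 124.6 and 136.5 CPM with DOX, a log2 difference of 0.81 (SE 0.13, adjusted p = 0.0092). COL18A1, the source of endostatin, was at 182.4, 215.0 and 191.2 CPM without DOX and 142.4, 145.6 and 103.2 CPM with DOX, a log2 difference of -0.59 (SE 0.12, adjusted p = 0.019). COL4A4, a type IV collagen chain, had a log2 difference of 0.56 (SE 0.14, adjusted p = 0.042). FRAS1, of the Fraser complex under epithelia, had a log2 difference of -0.31 (SE 0.072, adjusted p = 0.031). Of the 6 fits that left out a library, the call was lost in 2 for SMOC1, 3 for COL18A1, 5 for FRAS1 and 6 for COL4A4. COL18A1 and COL4A4 overlap the annotated genes SLC19A1 (log2 difference 0.31, SE 0.098) and RHBDD1 (0.019, SE 0.093).

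None of the 5 other plakins and keratin linkers, the 5 other laminin receptors tested, the 7 proteases that process LM332 or collagen XVII, or the 17 focal adhesion adaptors was called by edgeR. At an unadjusted p under 0.05 the edgeR fit held 1, 0, 1 and 3 genes of these lists, against 3597 of all 17026 genes. DESeq2 called 1, the adaptor ZYX (edgeR log2 difference 0.44, SE 0.13), and limma-voom called 1, the protease TLL2. The laminin receptor BCAM was called lower without DOX-positive replicate 2. TLL2, a tolloid-like protease with the most negative log2 difference of all list genes, was at 24.3, 30.7 and 30.2 CPM without DOX and 19.0, 17.8 and 8.83 CPM with DOX, a log2 difference of -0.90 (SE 0.28, edgeR adjusted p = 0.13). It was called without DOX-positive replicate 3, the lowest library. Their median log2 differences were 0.069, -0.0068, 0.031 and 0.11. Of 12 other tetraspanins, TSPAN7 alone was called by edgeR and fell, at 32.2, 33.8 and 31.4 CPM without DOX and 25.2, 24.7 and 26.1 CPM with DOX. Its log2 difference was -0.36 (SE 0.079, adjusted p = 0.026), a call lost in 4 of the 6 fits that left out a library. DESeq2 also called TSPAN8 higher (edgeR log2 difference 0.49, SE 0.14), and limma-voom called TSPAN7 alone. At an unadjusted p under 0.05 in the edgeR fit, TSPAN8 was higher and TSPAN7 lower. SDC2, TLL1, MMP2 and TNS3 of these lists were below the filter, as were COL4A5, COL4A6 and NID2 of the basement membrane list.

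**Figure D3:**
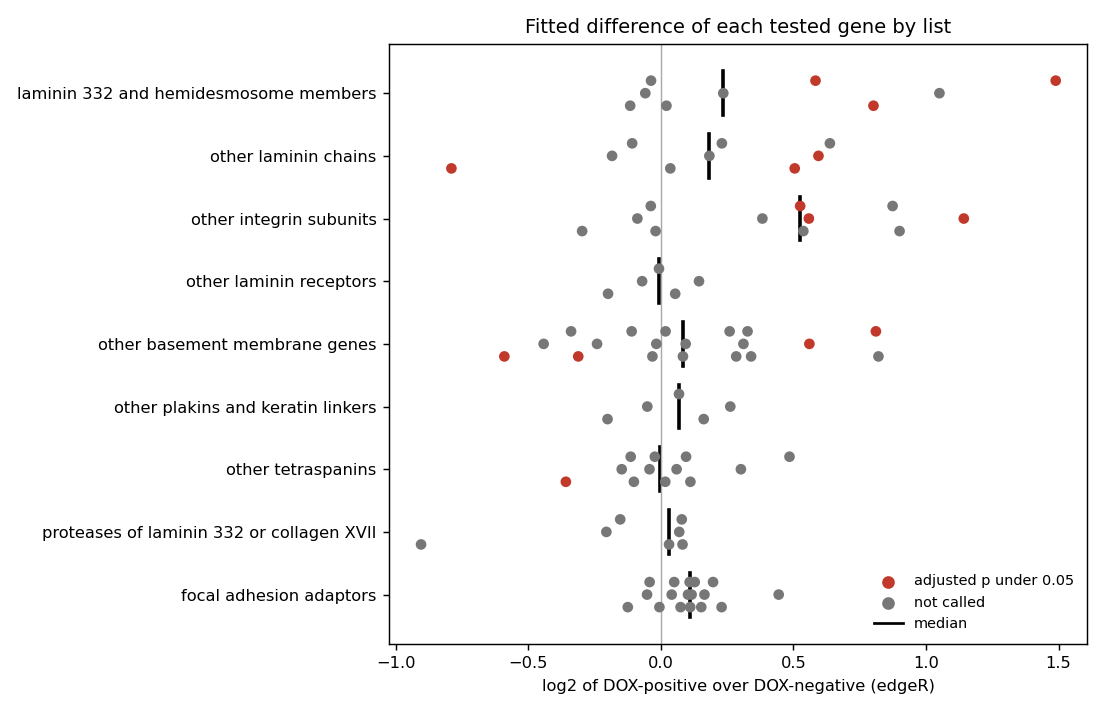
Log2 of DOX-positive over DOX-negative CPM from the edgeR fit for each tested gene of the 9-gene set and the 8 related lists, with red points at an adjusted p under 0.05 and a line at each list's median. Called genes occur among the laminin chains, integrins, basement membrane genes and tetraspanins, and the laminin receptors, plakins, proteases and adaptors have none in this fit.

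The genes whose profile over the 6 libraries was most like that of LAMB3 were found by the root mean square distance of centered log2 CPM, over the 14586 genes that averaged 50 or more counts. They were PLAU (distance 0.0997), the urokinase plasminogen activator, IL32 (0.101), a cytokine, ANXA1 (0.149), a phospholipid-binding annexin, FN1 (0.156), fibronectin, and GPRC5A (0.165), an orphan receptor. PLAU was at 12.5, 10.6 and 10.7 CPM without DOX and 26.6, 31.8 and 39.8 CPM with DOX. FN1 was at 402, 314 and 297 CPM without DOX and 631, 770 and 905 CPM with DOX. Like LAMB3, both were lowest among the treated libraries in DOX-positive library 1. They were picked for likeness to LAMB3 over these same libraries, so this shared pattern is no separate result. The profiles were centered but not scaled, so the distance also depends on the size of the DOX difference. LAMA3 was in place 87 by this distance (0.36) and ITGB4 in place 260 (0.47). ITGA3 was in place 1389, and CD151, ITGA6, DST and PLEC were in places 5869, 8651, 8908 and 10120. COL17A1 was below the minimum of 50 counts and was not ranked.

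**Figure D4:**
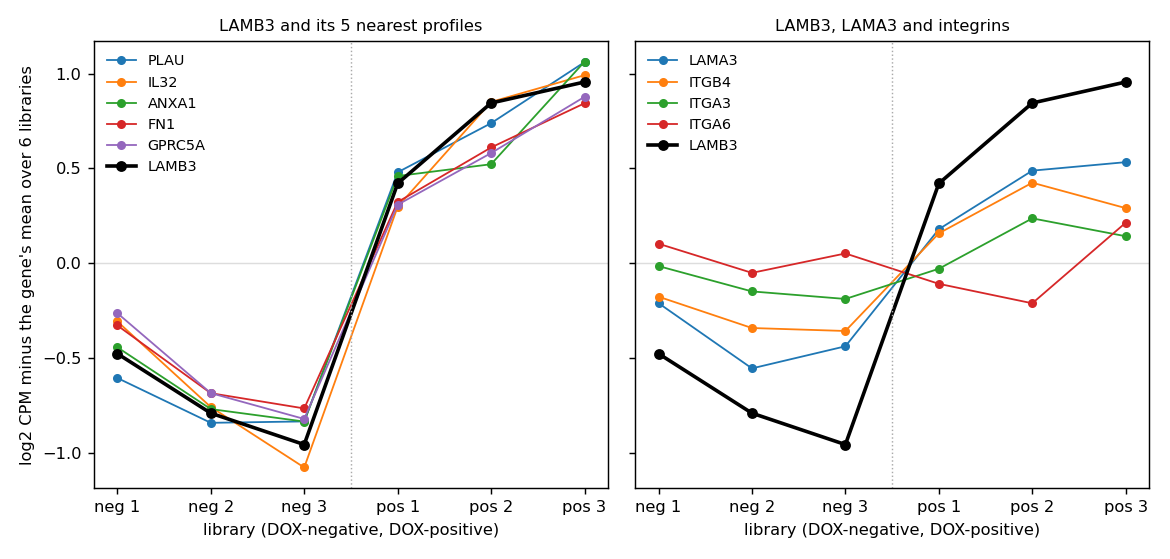
Log2 CPM minus each gene's mean over the 6 libraries, for LAMB3 (black) with its 5 nearest genes (left) and with LAMA3, ITGB4, ITGA3 and ITGA6 (right). The 5 nearest genes, picked for this likeness, follow LAMB3 closely. LAMA3 and ITGB4 move the same way over a smaller range, and ITGA6 does not separate the groups.

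Because hemidesmosome genes mark basal epithelium, 6 basal markers were read beside them. The summed level of these 6 markers was 1.79 to 2.30 CPM without DOX and 1.79 to 2.29 CPM with DOX. KRT5, KRT14, KRT17 and KRT6A did not pass the filter, KRT6A was at 0 in all libraries, and TP63 and KRT15 were not called. KRT17 had 1 count in each untreated library and 10, 7 and 16 counts in the treated ones. The 6 luminal markers summed to 2196 to 2414 CPM without DOX and 2378 to 2740.5 CPM with DOX, with none called by edgeR, DESeq2 or limma-voom and 1, KRT8, at an unadjusted p under 0.05, and KLK3 was at 0.

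The 7 fibroblast markers summed to 25.1 to 30.6 CPM without DOX and 23.4 to 27.9 CPM with DOX. COL3A1 was at 0 in all libraries, DCN, PDGFRB and FAP were below the filter, and COL1A1 (log2 difference 0.60, SE 0.12, adjusted p = 0.019) and LUM (1.06, SE 0.24, adjusted p = 0.030) were called higher, whereas COL1A2 was not called (-0.71, SE 0.27). Of the 8 neuroendocrine markers, INSM1 was lower with DOX (log2 difference -0.45, SE 0.11, adjusted p = 0.039), as was NCAM1 (-0.50, SE 0.094, adjusted p = 0.014). The other 6 were not called. CHGB was above its untreated range in every treated library (0.29, SE 0.11), ENO2 (0.13) and SCG3 (0.10) were also above 0, and SYP (-0.029), CHGA (-0.20) and FOXA2 (-0.53, SE 0.27) were below 0. Of the 6 fits that left out a library, the call was lost in 2 for COL1A1 and NCAM1, 3 for LUM and 4 for INSM1, and limma-voom did not call LUM. The part of these markers in the differences of the 9 genes was not tested.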

How the data were processed

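Total RNA was made into TruSeq Stranded mRNA libraries. The deposited tables hold raw counts, 1 row for each gene symbol, and TPM that the authors scaled by transcript length and library size. The submitters' processing notes name STAR, DESeq2 and GRCh38 (hg38); the annotation, counter and strand setting are not given in the sources used here. The counts were fitted with edgeR 4.0.16 in R 4.3.3 (filterByExpr, TMM, robust quasi-likelihood test, Benjamini-Hochberg over 17026 genes, called at adjusted p under 0.05), after the code was tested on simulated data. SE is the absolute log2 difference divided by the square root of F. The common dispersion was 0.009168 (biological CV 9.575%). TPM was used for levels between genes and, with limma 3.58.1, for alternatives. DESeq2 1.42.0 was a further alternative. No pair of libraries agreed within sampling noise (chi-square per degree of freedom 15.6 to 95.1). Same-numbered libraries did not deviate together (correlations -0.54, 0.019 and -0.10 over 14587 genes), so the samples were fitted without pairing. So few correlations cannot exclude a weak shared origin.

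The 9 genes and all lists were chosen with earlier results of these data known. Named genes were the 9, MUC1, up to 4 called genes per list with the largest absolute log2 difference, the 5 nearest LAMB3 profiles and the cell type markers. A result of the laminin list is not reported here. KRT17, LAMC1, LAMC3, ITGA1, ITGA9, ITGB5, TLL2, ZYX, BCAM, TSPAN8 and SMOC2 were singled out after their values were seen. The growth medium differs between the sample records and the study's methods. RefSeq coordinates are GRCh38.p14.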

Additional observations from a re-analysis of the deposited data

How the results depend on the processing

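LAMB3, LAMA3 and ITGB4 stayed called under the RLE, upper-quartile and no-factor scalings, the stricter count filter, DESeq2 and limma-voom. They were the only members called each time, of 9 tested or, under the stricter filter, of 8. With no count filter 4 were called. All these fits use the contrast that chose the set, so the calls describe how the result depends on the processing. DESeq2 called 1355 genes and 17 pathway genes, against 829 and 11. In limma-trend fits of TPM, log2(TPM + 1) with a mean TPM of at least 1 called 30 genes, 0 of the 6 tested members and 1 pathway gene (ITGA2). With the same filter, log2(TPM + 0.1) called 35, 0 and 1. LAMB3, ITGB4 and COL17A1 were below that mean and were not tested in these filtered fits. With no filter, log2(TPM + 1) called 0 genes (1248 at an unadjusted p under 0.05), 0 members and 0 pathway genes, with a LAMB3 log2 difference of 0.42, which the added pseudocount understates at such low TPM. With log2(TPM + 0.01), chosen after seeing the data, 33 genes, 1 member (LAMB3) and 0 pathway genes were called. Higher calls were 59.8% of all calls in the count fit, 43.3% and 45.7% in the filtered TPM fits and 81.8% with log2(TPM + 0.01). Leaving out 1 library at a time gave 58 to 1035 genes (fewest, 58, without DOX-negative replicate 3; then 127 with the second DOX-negative library left out and 375 with the third DOX-positive library left out), 1 to 4 members (LAMB3 alone without the third DOX-negative library, and LAMB3 with LAMA3 without the second), 0 to 13 pathway genes and a LAMB3 log2 difference of 1.37 to 1.64. The cause of these shifts was not tested. The replicate number as a block gave 998 genes, 3 members, 10 pathway genes and a LAMB3 log2 difference of 1.48; the numbers mark no shared origin in the labels. In the level order, 7 of 9 genes kept their place in the DOX-positive libraries. COL17A1 rests on 15 to 74 counts per library.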
